A study of Rattus norvegicus with 2 samples.

Results

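The miRNAs described here are those of the miR-17-92 cluster and of its paralogous clusters, miR-106b-25 and miR-106a-363, in squamous cell carcinoma (SCC) of the rat tongue and in normal rat tongue. They were chosen by name from the array's design: every probe target that bears the name of a product of these 3 clusters, with or without a 5p or 3p suffix, and with no star strand. This gave 13 of the 350 rat miRNAs on the array: miR-17, miR-17-3p, miR-18a, miR-19a, miR-19b, miR-20a and miR-92a for miR-17-92, miR-106b, miR-93 and miR-25 for miR-106b-25, and miR-20b-5p, miR-20b-3p and miR-363 for miR-106a-363.

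A miRNA is a short RNA that pairs with messenger RNAs, mainly through its seed (bases 2 to 8), and lowers their output. The miR-17-92 cluster is transcribed as 1 primary RNA that is cut into several hairpins, and it is known as an oncogenic cluster that MYC and E2F factors raise and that is active in dividing cells. Its known targets include the pro-apoptotic Bcl2l11 (Bim), the cell cycle inhibitor Cdkn1a (p21) and members of the E2F family. Expression of miR-106a-363 is usually low in adult tissue.

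Male Sprague-Dawley rats aged 6 to 7 weeks received the carcinogen 4NQO (4-nitroquinoline 1-oxide) at 0.02 g/l, or distilled water alone, with 20 rats in each arm, and tissue was taken at the end of week 36. RNA was prepared from 7 tongue tumours of the 4NQO arm and 7 normal tongue tissues of the water arm. The data are 2 Agilent 1-colour arrays, called the tumour-labelled and the normal-labelled array after their sample labels, which do not say whether 1 animal or a pool was hybridised. A single array per group allows neither a replicate check nor a test between groups, so every error below is the spread of repeated spots of a probe within an array. The arrays carry the names of their labels here, and the sign of every ratio rests on those labels. On the log2 scale after scaling (labelled tumour over labelled normal), miR-1 of muscle had a ratio of 3.72, and miR-21 and miR-31, both known to be raised in oral carcinoma and named after their values were seen, had ratios of -3.26 and -3.93. These 3 go against what the labels would lead one to look for, and whether the 2 labels were exchanged cannot be told from these data. An exchange would turn the sign of every ratio below, those of the cluster members and of all lists included.

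RefSeq sequences were found for all 13 members through the letters of their own probes. They are printed 5′ to 3′ with the seed in capitals, because the seed decides which members can act on the same target sites. The first set shares 1 seed and joins all 3 clusters.
miR-17: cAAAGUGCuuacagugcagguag
miR-20a: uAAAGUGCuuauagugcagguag
miR-20b-5p: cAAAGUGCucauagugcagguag
miR-93: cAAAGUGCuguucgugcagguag
miR-106b: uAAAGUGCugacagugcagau

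The seed of miR-18a differs from the miR-17 seed at 1 base.
miR-18a: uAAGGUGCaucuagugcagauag

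The miR-19 pair has a seed of its own, and its mature sequences differ at 1 of 23 bases.
miR-19a: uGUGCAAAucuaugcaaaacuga
miR-19b: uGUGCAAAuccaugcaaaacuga

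Another seed is shared by miR-92a, miR-25 and miR-363, again 1 from each cluster.
miR-92a: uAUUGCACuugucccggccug
miR-25: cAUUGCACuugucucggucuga
miR-363: aAUUGCACgguauccaucugu

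The members with a 3p suffix, miR-17-3p and miR-20b-3p, come from the opposite arm of their hairpins and share another seed.
miR-17-3p: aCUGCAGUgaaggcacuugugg
miR-20b-3p: aCUGCAGUgugagcacuucugg

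In the RefSeq table of the rat assembly GRCr8, the 6 hairpin genes of miR-17-92 (Mir17, Mir18a, Mir19a, Mir20a, Mir19b1 and Mir92a1) lie within 785 bases on the plus strand at chr15:98587848-98588632. Those of miR-106b-25 (Mir106b, Mir93 and Mir25) lie within 483 bases on the minus strand at chr12:22156641-22157123, inside Mcm7, which encodes a subunit of the replicative helicase. The 5 of miR-106a-363 (Mir106a, Mir20b, Mir19b2, Mir92a2 and Mir363) lie within 871 bases on the minus strand at chrX:137342777-137343647. The array's own grid names the older build rn4, and no position was converted between builds. Mature miR-17, miR-19b and miR-92a are each listed from a gene on chromosome 15 and from a gene on chromosome X, with the same sequence. An array cannot tell such copies apart, so these 3 are counted with miR-17-92 but may hold product of miR-106a-363. Only miR-18a, miR-19a, miR-17-3p and miR-20a are listed from chromosome 15 alone, and only miR-20b-5p, miR-20b-3p and miR-363 from chromosome X alone.

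Of the 13 members, 7 were detected on both arrays and 6 on neither, against 24.3% of all 350 miRNAs detected on both. Detected means that more than 50% of a probe's spots were well above background by the scanner software. The 7 were miR-17, miR-20a, miR-19b and miR-92a of miR-17-92 and miR-106b, miR-93 and miR-25 of miR-106b-25. No member listed from chromosome X alone was detected. Of the 5 members of the miR-17 seed group 4 were detected, and of the 3 of the miR-92a seed group 2 were. Only miR-19b of the miR-19 pair was, and miR-18a was not.

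The signals of the detected members are given first as deposited, in intensity units before any scaling between arrays, as mean ± SD over spots. Probes differ in how brightly they report, so levels are compared between arrays for the same probe and never between miRNAs. In the miR-17 seed group, miR-17 gave 35.9 ± 4.93 (n = 10 spots) on the tumour-labelled array and 30.9 ± 2.86 (n = 9) on the normal-labelled array with its 16-base probe. For miR-20a the 19-base probe gave 132 ± 3.09 (n = 9) and 109 ± 5.00 (n = 10), in the same order of arrays. Its 18-base probe gave 70.0 ± 3.21 (n = 10) and 57.5 ± 6.85 (n = 10). With the 19-base probe every spot of the tumour-labelled array lay above every spot of the normal-labelled array, whose highest was 117, while the spots of the 18-base probe overlapped. miR-93 gave 54.4 ± 3.34 (n = 10) and 47.3 ± 4.08 (n = 10), with overlapping spots, as had miR-17. miR-106b gave 69.4 ± 3.03 (n = 9) and 65.1 ± 4.99 (n = 10) with its 17-base probe, and its spots overlapped between the arrays. The 16-base probe of miR-106b was near the limit of detection, at 24.8 ± 3.89 (n = 10) and 24.0 ± 5.09 (n = 8), against 18.3 and 18.2 for the dimmest detected probe of any miRNA.

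miR-19b gave 97.3 ± 3.53 (n = 9) on the tumour-labelled array and 80.4 ± 5.19 (n = 10) on the normal-labelled array, with its 20-base probe, and the spots of the 2 arrays did not overlap. In the miR-92a seed group the 17-base probe of miR-92a gave 239 ± 10.2 (n = 9) and 211 ± 13.4 (n = 10), and its 16-base probe gave 32.5 ± 5.01 (n = 10) and 29.8 ± 2.78 (n = 9). miR-25 gave 126 ± 8.44 (n = 10) and 95.3 ± 9.28 (n = 10) with its 18-base probe. Spots of miR-25 ran from 115 to 145 on the tumour-labelled array and from 78.2 to 107 on the normal-labelled array, while those of both miR-92a probes overlapped. In all 10 detected member probes the unscaled mean was higher on the tumour-labelled array, as signals there generally were.

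**Figure D1:**
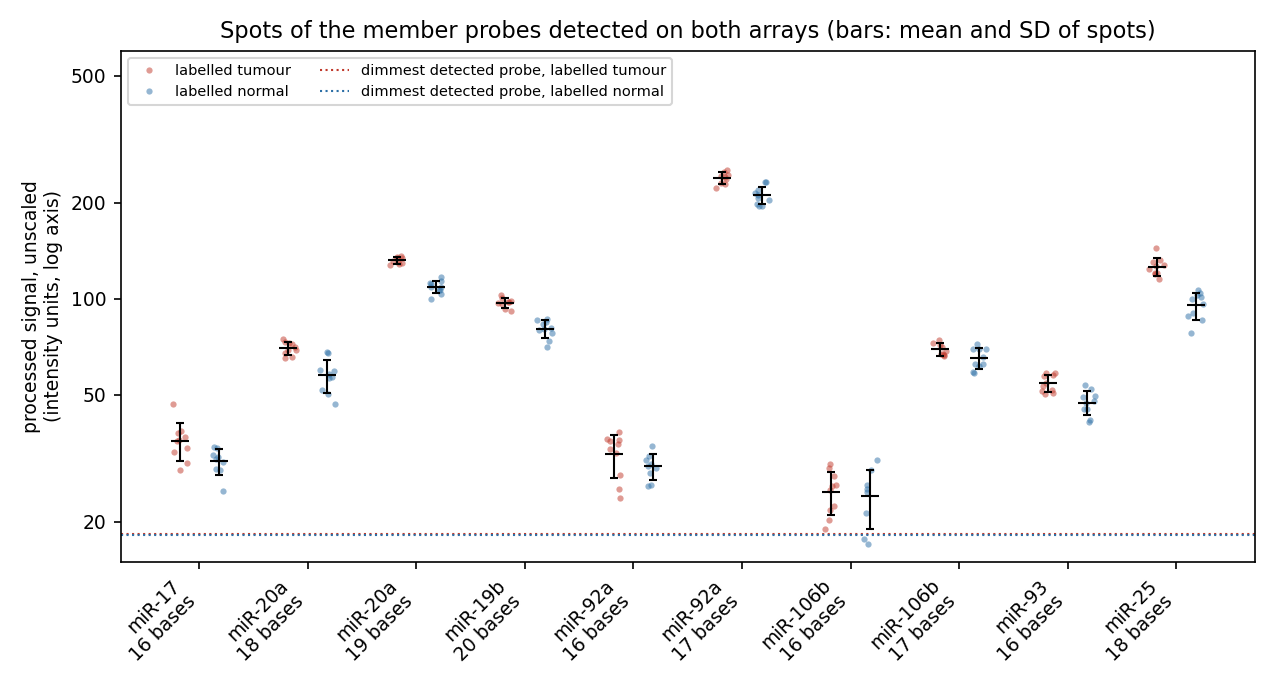
Processed signal before scaling (intensity units, log axis) of every spot kept of the 10 member probes detected on both arrays, with the tumour-labelled array in red and the normal-labelled array in blue; black bars give the mean and SD over spots and dotted lines the dimmest detected probe. Each probe's mean is somewhat higher on the tumour-labelled array, from 1.03-fold for the 16-base probe of miR-106b to 1.32-fold for miR-25.

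Signals were generally higher on the tumour-labelled array: among the 140 probes that both arrays detected, the 75th percentile was 526 intensity units there and 277 on the normal-labelled array, 1.89-fold apart. Each array was therefore divided by its own 75th percentile, and a miRNA's log2 ratio (labelled tumour over labelled normal) averages those of its probes that both arrays detected. After this scaling all 7 measured members had ratios below 0, between -0.85 and -0.52, whereas without scaling all 7 were above 0, between 0.069 and 0.41. With the positive control features as the scale, 6 of the 7 lay above 0 and miR-106b at -0.0024. The median of all 85 measured miRNAs was itself above 0, at 0.46 without scaling and 0.39 on the control features. Every member lay below that median in both settings, as after scaling by the 75th percentile, because a common factor per array leaves this order unchanged. Whether the clusters were lower or slightly higher on the tumour-labelled array therefore depended on the scaling.

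A quantity that no common scaling factor changes is the member's ratio relative to other miRNAs of the same arrays. The median ratio over all 85 miRNAs measured on both arrays was -0.46 and that of the members was -0.71, so the members' median lay -0.24 from it on the log2 scale. The single members lay between -0.39 and -0.05 from the median of all, in the order miR-106b, miR-92a, miR-93, miR-17, miR-19b, miR-20a and miR-25. The members thus had ratios somewhat below the middle of what these arrays measured, at ranks 23 to 40 of 85 counted from the lowest.

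At least 2-fold differences were seen for 0 of the 7 members in either direction after scaling, and for 35.3% of all 85 miRNAs, 22.4% lower and 12.9% higher on the tumour-labelled array. Ratios below 0 were found for 7 of 7 members and for 62.4% of all. The split of the 11 higher and 19 lower calls over all miRNAs became 28 and 5 without scaling, 23 and 7 when the percentile was taken over all probes, 27 and 5 on the control features, and 18 and 8 without the muscle miRNAs in the percentile. No member reached 2-fold under any of these.

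For the single members of the miR-17 seed group, the scaled level of miR-106b was 0.0790 on the tumour-labelled array and 0.143 on the normal-labelled array in units of each array's 75th percentile. This is 1.81-fold lower on the tumour-labelled array (log2 ratio -0.85, spot SE 0.07), and 1.05-fold higher without scaling. miR-93, from the same transcript, was 1.65-fold lower (-0.72, spot SE 0.05) and 1.15-fold higher without scaling. miR-17, the member that gives the family its name, was 1.63-fold lower (-0.71, spot SE 0.08) and 1.16-fold higher without scaling. miR-20a, the only measured member listed from chromosome 15 alone, was 1.56-fold lower (-0.64, spot SE 0.03) and 1.21-fold higher without scaling. Both of its probes gave the same ratio to within 0.01.

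The other members were close to these. miR-19b was 1.56-fold lower (log2 ratio -0.65, spot SE 0.03) after scaling and 1.21-fold higher without it. miR-92a, a miRNA also studied as an inhibitor of vessel growth, was 1.70-fold lower (-0.77, spot SE 0.05) and 1.11-fold higher without scaling. miR-25 had the highest ratio of the 7, at 1.43-fold lower (-0.52, spot SE 0.05), and 1.32-fold higher without scaling. The ratios of miR-17, miR-19b, miR-93 and miR-25 rest on 1 probe each, and those of miR-20a, miR-92a and miR-106b on 2, which differed by at most 0.05 within a miRNA. A shorter probe of each of the former was detected on neither array. Unscaled, on the tumour-labelled and the normal-labelled array, it gave 4.31 and 5.09 for miR-17 and 4.75 and 5.60 for miR-93. For miR-19b it gave 16.2 and 12.4, and for miR-25 15.5 and 11.5.

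**Figure D2:**
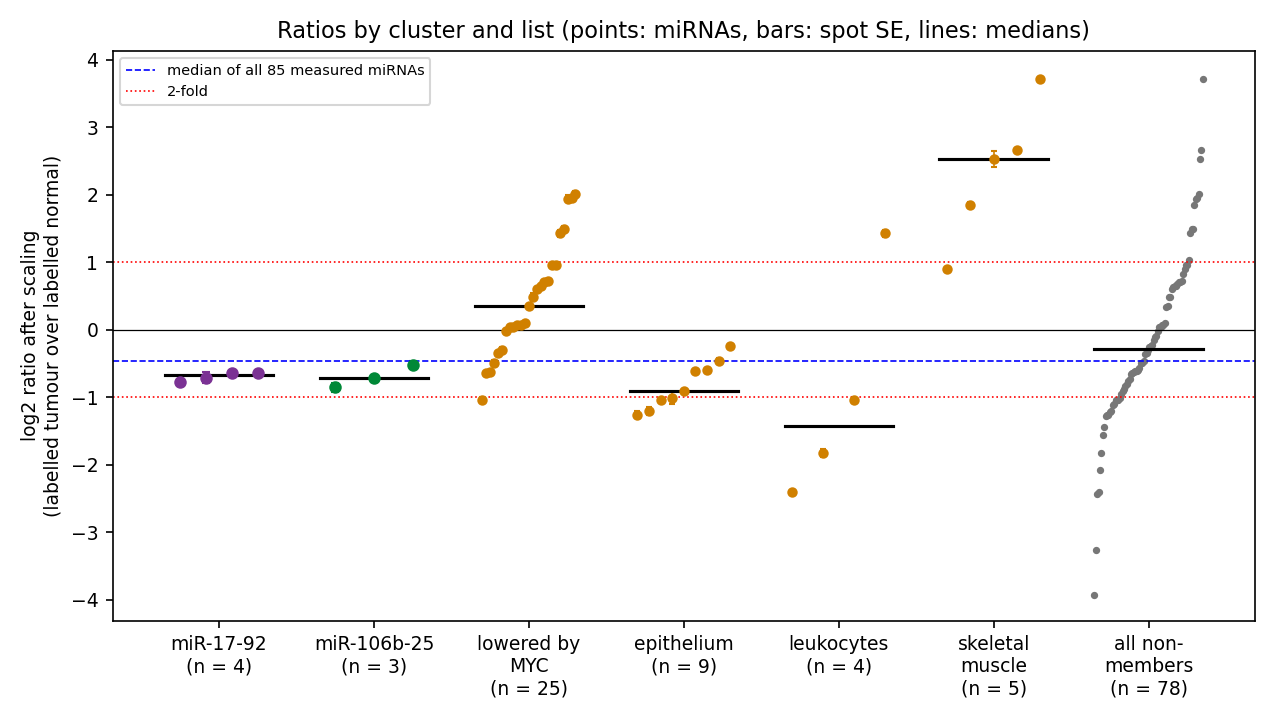
Log2 ratio after scaling (labelled tumour over labelled normal) of the measured members of miR-17-92 (purple) and miR-106b-25 (green), beside lists of other miRNAs (orange) and all measured non-members (grey); bars give the spot SE, short black lines medians, the dashed line the median of all 85 miRNAs and dotted lines 2-fold. The 7 members lie between -0.85 and -0.52 after scaling (0.069 to 0.41 without it), within a narrow band of the range from -3.93 to 3.72; miR-106a-363 has no point because none of the members listed from it alone was detected.

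The ratios of the 7 members spanned 0.34 on the log2 scale with an SD of 0.11, while those of all 85 miRNAs spanned 7.65 with an SD of 1.25. Between the lowest and the highest member lay 11 of the 78 other miRNAs, with 45 above and 22 below. Ordered by ratio, miR-106b and miR-92a differed by 0.08 (combined spot SE 0.08), miR-92a and miR-93 by 0.05 (0.07), miR-93 and miR-17 by 0.01 (0.09), miR-17 and miR-19b by 0.06 (0.08), and miR-19b and miR-20a by 0.005 (0.05). None of these 5 neighbouring pairs was further apart than 2 spot SEs. The sixth, miR-20a and miR-25, differed by 0.13 (combined spot SE 0.06). Over all 21 pairs, 10 differed by more than 2 combined spot SEs, of which 6 involved miR-25 and the other 4 set miR-106b or miR-92a below miR-19b or miR-20a. The pairs with miR-25 all rest on its 1 detected probe. Its pairs with miR-20a, miR-19b and miR-17 barely passed, at 2.004, 2.03 and 2.03 combined spot SEs. Spot errors leave out the differences between probes, between samples and between labelling reactions.

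The clusters were compared by the medians of their members' ratios. miR-17-92 had a median of -0.68 over 4 members, from -0.77 to -0.64 (SD 0.06). miR-106b-25 had a median of -0.72 over 3, from -0.85 to -0.52 (SD 0.17). Their difference, miR-17-92 minus miR-106b-25, was 0.04, less than the range within either cluster. It was 0.04 without miR-19b and miR-92a and, in a comparison added after the gene copies were seen, 0.08 with miR-20a as the only member of miR-17-92. The lowest and the highest of the 7 ratios both belonged to miR-106b-25: miR-106b and miR-25, whose hairpins are cut from 1 transcript, differed by 0.34 (combined spot SE 0.09). A ratio for miR-106a-363 could not be formed.

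Grouped by seed instead, the 4 measured members with the miR-17 seed had a median of -0.71, from -0.85 to -0.64. The 2 with the miR-92a seed had a median of -0.64 and lay at -0.77 and -0.52. The difference, miR-17 seed minus miR-92a seed, was -0.07 and smaller than the 0.25 between miR-92a and miR-25, so neither cluster nor seed ordered the ratios. miR-19b, the only measured member with the miR-19 seed, lay between these medians at -0.65.

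Similar probes can share signal. The 16-base probe of miR-17 differs from the complement of miR-20a at 1 base, and both probes of miR-20a differ at 1 base from miR-17 and from miR-20b-5p. The detected probe of miR-19b differs at 1 base from miR-19a. The probes pair with the 3′ part of the miRNA, from base 8 of miR-17 and miR-93, base 5 of miR-20a, miR-92a, miR-25 and miR-106b and base 4 of miR-19b with the longest detected probe, so they read mainly sequence outside the seed. For miR-93, miR-106b, miR-92a and miR-25 no other RefSeq rat miRNA came within 1 mismatch of a probe's full length. The part of shared signal in the ratios of miR-17, miR-20a and miR-19b was not tested.

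Some probes of detected and undetected members are alike. The pairs shown differ at 1 base, in capitals, over the stretch that both cover, and also in length. A 20-base probe of miR-19a, not shown, has the same length as the 20-base probe of miR-19b and differs from it at 1 base. Signals are not set against each other, because probes differ in how brightly they report. They are printed 5′ to 3′ as DNA, the complement of the miRNA read from its 3′ end.
miR-19b, 20-base probe: tcagttttgcatGgatttgc
miR-19a, 21-base probe: tcagttttgcatAgatttgca
miR-20a, 19-base probe: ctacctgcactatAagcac
miR-20b-5p, 17-base probe: acctgcactatGagcac

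miR-19a lies in the same transcript as miR-19b and shares its seed. No spot of its probes was well above background on either array. Its 21-base probe gave 8.56 ± 2.77 intensity units (n = 10) on the tumour-labelled array and 7.90 ± 2.82 (n = 10) on the normal-labelled array, and its 20-base probe 2.94 ± 2.54 (n = 9) and 4.55 ± 3.50 (n = 10). Negative control spots had a mean of 0.614 and 1.67 intensity units and a 95th percentile of 5.59 and 6.91. The 21-base probe of miR-19a therefore lay above the 95th percentile of the negative controls on both arrays and below the dimmest detected probe. The values of the 2 arrays overlapped.

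miR-18a, which shares the miR-17-92 transcript, gave 2.73 ± 2.25 intensity units (n = 10) on the tumour-labelled array and 8.39 ± 3.60 (n = 9) on the normal-labelled array with its 19-base probe. This probe was the only one of an undetected member whose mean passed the 95th percentile of the negative controls on the normal-labelled array alone. Its 18-base probe gave -1.38 ± 2.59 (n = 10) and 1.15 ± 1.67 (n = 10). No spot of either miR-18a probe that was kept was well above background, so the difference has no fold.

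The members listed from chromosome X alone stayed at the level of the negative controls. Means of the 4 probes of miR-20b-5p ran from -3.68 to 1.61 intensity units on the tumour-labelled array and from -3.46 to 0.666 on the normal-labelled array. The 17-base probe of miR-20b-5p, which differs from the complement of miR-20a at 1 base, gave 1.61 ± 5.14 (n = 5) and 0.666 ± 2.17 (n = 5). Both miR-363 probes had means between -1.15 and -0.215 on the 2 arrays. For the 3p arms, miR-17-3p had probe means between -4.28 and -0.761, and miR-20b-3p between -3.15 and -0.00761. None of these members was detectable with these probes at the signal of these arrays, which does not show that they were absent.

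**Figure D3:**
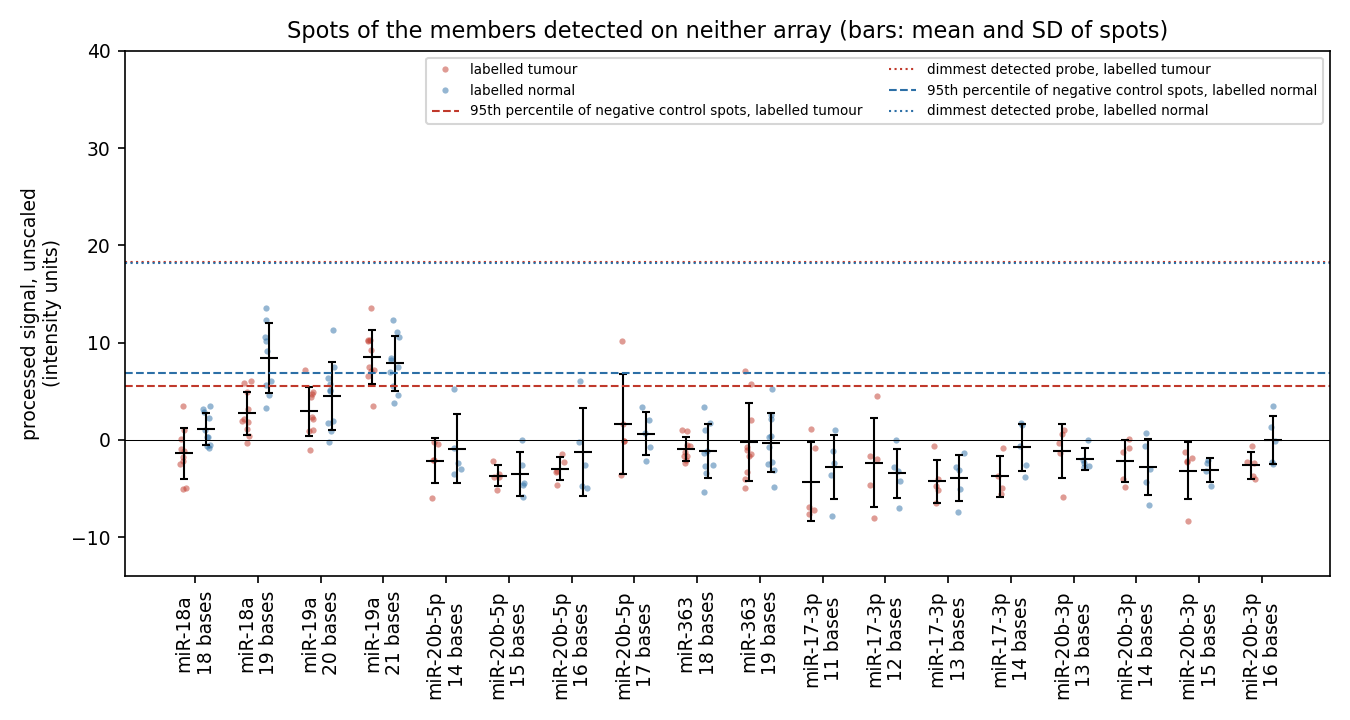
Processed signal before scaling (intensity units, linear axis) of every spot kept of the 18 probes of the 6 members detected on neither array; black bars give the mean and SD over spots, dashed lines the 95th percentile of negative control spots and dotted lines the dimmest detected probe of each array. The 21-base probe of miR-19a lies above the dashed lines on both arrays and the 19-base probe of miR-18a on the normal-labelled array, all below the dotted lines at 18.3 and 18.2.

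The array also carries star strands of 4 of the same hairpins, miR-20a*, miR-106b*, miR-25* and miR-363*, and none was detected on either array. For miR-20a, miR-106b and miR-25, 1 strand of the hairpin was thus detected and the other was not. The 3p strand of the miR-17 hairpin on chromosome 15 was not detected either. Detected miR-17, however, is also listed from Mir106a on chromosome X. Of the array's other miRNAs that RefSeq sequences could be matched to, miR-32 and miR-92b carry a member's seed, that of miR-92a, and neither was detected.

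Among miRNAs outside the clusters, the 4 with ratios nearest to the members' median of -0.71 were miR-140 (-0.73), miR-365 (-0.76), miR-652 (-0.65) and miR-34a (-0.64). Nearness here is the absolute difference of a single log2 ratio from 2 arrays, and it was at most 0.07. Such a difference is a weak measure of likeness.

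MYC, which raises miR-17-92, is also known to lower a group of widely expressed miRNAs. Of 27 such miRNAs 25 were on the array under the name listed, and all 25 were measured on both arrays. Their median ratio was 0.35 after scaling and 1.27 without it, and the scaled ratios ran from -1.04 to 2.02, with 5 at 2-fold or more above 0 and 1 at 2-fold or more below, against 12.9% and 22.4% of all 85 measured miRNAs, a split that turned to 28 higher and 5 lower without scaling. The highest were miR-29c (2.02), miR-30e (1.96), miR-30a (1.94) and miR-30c (1.49). Of the 25, 22 had ratios above all 7 cluster members, against 45 of all 78 non-members (57.7%), which include the 25. The list was chosen with earlier results of these data known, so this count is no independent support. The members' median lay -1.06 from the median of this list, a difference that a common scaling factor does not change. miR-16, miR-34a and miR-146a were the 3 that did not lie above all members, named after their values were seen. No test was possible for the list, and several of its miRNAs are also found in muscle.

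Both arrays detected miRNAs of the muscle and the epithelium that make up the tongue, and the ratios of these lists lay apart. Of the 7 skeletal muscle miRNAs 5 were measured, all with ratios above 0, and their scaled levels summed to 19.4 on the tumour-labelled array and 3.18 on the normal-labelled array. The defining miRNA of muscle, miR-1, had a ratio of 3.72, and miR-208 and miR-499 were detected on neither array. Of the 10 epithelial miRNAs 9 were measured, with a median of -0.90 after scaling and 0.02 without it, their levels summed to 4.10 and 7.05, and miR-182 was detected on the normal-labelled array alone. Leukocyte miRNAs, 4 measured of 5 on the array, had a median of -1.43, or -0.51 without scaling, and sums of 0.472 and 1.16. They did not move one way: miR-223 (-2.41), miR-142-3p (-1.82) and miR-146a (-1.04) had ratios below 0 and miR-150 a ratio of 1.43. The red blood cell miRNA miR-451 was at 1.04, miR-144 was detected on neither array, and the sums were 0.193 and 0.133. Each sum takes the probes detected on its own array, which need not be the same on both. The sums are therefore not compared between the arrays, while every ratio uses probes that both detected. The members' median thus lay 0.19 above the epithelial median, 0.72 above that of the leukocyte list and -3.24 from the muscle median. It lay within the range of the epithelial list, -1.26 to -0.24, and within that of the leukocyte list. The part of the tissue makeup in the members' ratios was not tested, and with bulk tissue fewer cells of a type and less RNA per cell cannot be told apart.

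As a share of the summed signal of all miRNAs, the 13 members made up 1.34% on the tumour-labelled array and 2.12% on the normal-labelled array. With the skeletal muscle miRNAs left out of the sum, the shares were 1.87% and 2.22%. The gap between the arrays was narrower without the muscle miRNAs. This follows from their larger part of the signal on the tumour-labelled array and is no separate result. A share depends on how brightly each probe reports, so it describes the arrays and not the number of molecules.

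**Figure D4:**
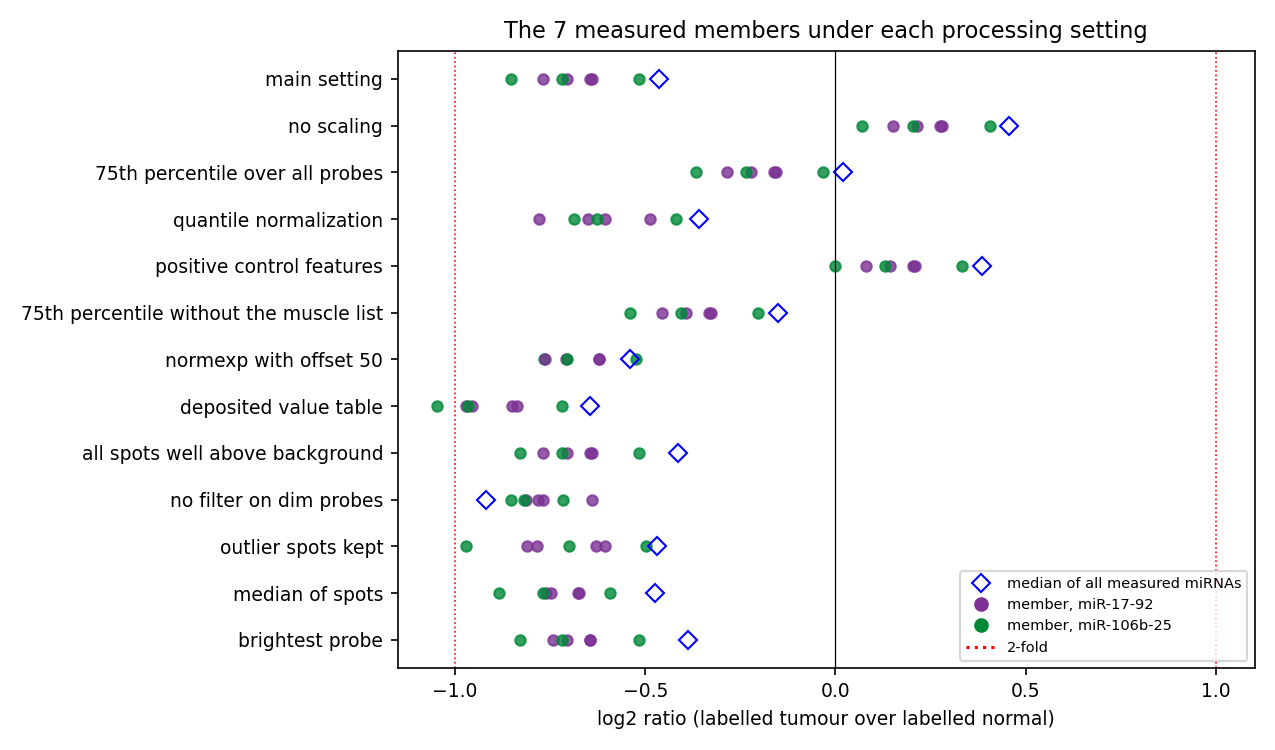
Log2 ratios (labelled tumour over labelled normal) of the 7 measured members under the main setting and 12 other settings, with the members of miR-17-92 in purple, those of miR-106b-25 in green and the median of all measured miRNAs as an open diamond; dotted lines mark 2-fold. The members move together with the scaling, from -0.71 in the median to 0.21 without scaling, and miR-106b passes 2-fold with the deposited value table at -1.05.

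The position below the median of all miRNAs held for all 7 members in 11 of the 13 settings, the main one included. It could not change without scaling, on the control features, with the percentile over all probes or without the muscle miRNAs in it. These settings differ from the main one only by a common factor per array. With normexp background correction and its offset of 50, miR-25 at -0.52 lay above that median of -0.54. With no filter on dim probes, where undetected probes sit at each array's floor, the median of all 350 miRNAs was -0.92 and no member lay below it.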

How the data were processed

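Per the file headers, the deposited intensity of a spot is the output of Agilent Feature Extraction (10.5.1.1), which subtracted background and corrected a spatial trend; arrays were not normalized to each other. The deposited value table holds the total gene signal of that software, also an intensity: values at or above 1 (208 and 201 features) agreed to a tolerance of 1e-06 relative, and all others were set to 1. The kit the labels name amplifies messenger RNA; the sources used here give none for miRNA.

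Outlier spots by the deposited flags were left out, 248 of 7000 on the tumour-labelled array and 336 of 7000 on the normal-labelled array, and no spot was saturated. Spots of a probe were averaged as linear values, 4 to 20 per probe. The tumour-labelled array detected 175 probes and the normal-labelled array 149. Scaling divided each array's signals by the 75th percentile of the 140 probes detected on both; values were then floored at the lowest detected probe, and log2 taken. The spot SE combines both arrays' spots. A call means 2-fold or more and is no test. Normexp came from limma 3.58.1, and all else was computed with Python 3.11.15.

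The members, lists and the rule for naming miRNAs were chosen with earlier results of these data known. Named are all members, the 4 non-members with the nearest ratio, star strands and same-seed miRNAs on the array, and up to 4 per list with the largest absolute ratio. Another 13 settings were run, and 1 more was added after the gene copies were seen. Mature sequences are from RefSeq (GRCr8), where 314 of the 350 array miRNAs matched through their probes, miR-363 with 1 base past the RefSeq end. Simulated arrays were made for the comparison of the 2 arrays, both from the probe means of the normal-labelled array with spot noise alone. All 86 measured of 350 miRNAs came back within 0.2 of their planted log2 change, after removing the shift of -0.33 that the scaling left. That shift was read from miRNAs planted as unchanged, which are not known in the real data. The simulation checks the calculation only, since it holds no difference between samples or labelling reactions. The precision is limited by the number of arrays; spots of detected probes had a median CV of 5.20% and 6.33%.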

Additional observations from a re-analysis of the deposited data

How the results depend on the processing

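The direction of the members' ratios depended on the scaling. Their median of -0.71 became 0.21 when no scaling was applied and 0.14 when the positive control features set the scale. It moved to -0.22 with the 75th percentile over all probes, to -0.39 without the muscle miRNAs in it and to -0.96 with the deposited value table, where 1 member, miR-106b, passed 2-fold. Without scaling the members were at 0.069 (miR-106b), 0.15 (miR-92a), 0.20 (miR-93), 0.21 (miR-17), 0.28 (miR-19b), 0.28 (miR-20a) and 0.41 (miR-25). On the control features, miR-92a was at 0.081, miR-93 at 0.13, miR-17 at 0.14, miR-19b at 0.20, miR-20a at 0.21 and miR-25 at 0.33. These settings multiply each array by 1 factor, which shifted the median of all miRNAs by 0.92 without scaling, 0.85 on the control features, 0.48 with all probes and 0.31 without the muscle miRNAs, while quantile normalization shifted it by 0.10. Relative to the median of all measured miRNAs, the members' median of -0.24 stayed between -0.32 and -0.17 in 11 of the 12 other settings and turned to 0.066 with no filter on dim probes, where members and other miRNAs detected on neither array are set at the floors. Of the 11, those that change only the factor of each array could not move it. They are no scaling, the control features, all probes and the percentile without the muscle miRNAs. The differences between clusters and between seed groups moved by less than the mean spot SD of the members, 0.18, under every setting run. That yardstick is wider than either difference, and a common factor per array cannot move them. The cluster difference of 0.04 changed sign, to -0.0013 with quantile normalization and -0.0074 with outlier spots kept. The seed group difference kept its sign. Over all miRNAs, the 30 calls became 11 with normexp, 3 higher and 8 lower. Of 84 values of single members under these settings, 47 moved by less than their spot SD, 24 moved further with the same sign and 13 changed sign. No paired analysis was possible because each group has 1 array. Signal over background limits the rest: the 6 undetected members gave no ratio.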
